A study of Mus musculus with 4 samples.

Results

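The immune infiltrate of B16F10-OVA melanomas in mice whose T cells lack miR-155 (miR-155 TCKO, called knockout here) was compared between day 12 and day 9 after tumour injection. All cell barcodes of the 2 knockout libraries with at least 200 genes and at most 10% of UMIs from mitochondrial genes were used. These were 5774 of the 11224 barcodes that passed in the 4 libraries of the study, with 3738 from day 9 and 2036 from day 12. The other 5450 barcodes came from wild-type tumours at the same days and are set beside the knockout values where they help to read them.

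B16F10 is a mouse melanoma line, and OVA is the model antigen ovalbumin that it was made to express. Each mouse received 1000000 cells under the skin, and the strain label is C57BL/6 for every library. The 4 groups were knockout at day 9, knockout at day 12, wild-type at day 9 and wild-type at day 12, each with 1 library from the pooled tumours of more than 4 mice. Tumours were dissociated in Accumax, an enzyme mix, and live CD45-positive cells (all leukocytes) were sorted. The same number of sorted cells per group entered droplet-based 3' RNA sequencing. The labels name T cells as the site of the deletion and do not give the Cre driver or the part of the gene removed. Because each side of the comparison was 1 pooled library, no test between days was possible. The labels give no preparation runs, and an effect of the run cannot be told apart from one of the day. Intervals below are 95% intervals of counting error only and do not cover the spread between mice. Differences between the day effects of the genotypes were not tested.

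MicroRNAs are short RNAs that bind messenger RNAs through a seed at their 5' end and lower their translation or stability. miR-155 is made in activated lymphocytes and myeloid cells from the host transcript Mir155hg, and in T cells it is known for sustaining effector responses and cytokine signalling. Tumour monocytes enter from the blood and can become macrophages, whose state is known to respond to interferon-gamma from T cells and NK cells, to type I interferons and to cytokines such as interleukin-4. The mature miRNA missing from the knockout T cells is shown for its seed, bases 2 to 8, in capitals (RefSeq, GRCm38.p6, chr16:84714143-84714165, plus strand).
mmu-miR-155-5p: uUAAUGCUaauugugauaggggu

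The knockout libraries held 33837306 UMIs at day 9 and 18696682 at day 12 after filtering, with medians of 7756 and 7862 UMIs per barcode and 1.69% and 1.93% mitochondrial UMIs. They shared 12 barcode sequences. Mir155hg was read first as a check of the labels. T cell barcodes held 0 Mir155hg UMIs in both knockout libraries, which allows at most 0.735 CPM on day 9 and 3.1 CPM on day 12 (3 UMIs in the library's T cells; CPM is UMIs per 1000000 UMIs of the lineage). Wild-type T cells held 90 UMIs (8.19 CPM) at day 9 and 20 UMIs (6.95 CPM) at day 12. Other cells of the knockout tumours kept the transcript. Mature dendritic cells held 15 UMIs (23.8 CPM) at day 9 and 61 UMIs (40.2 CPM) at day 12, and NK cells held 4 and 10.

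Each barcode was placed in a lineage by UMIs of marker genes, with at least 2 UMIs and 2 per 10000 for most gates (Cd3 genes for T cells, Ncr1 and Klrb1c for NK cells, Cd209a and Flt3 for conventional dendritic cells 2, cDC2). Monocytes and macrophages were split by C1q genes, with at least 5 per 10000 UMIs for macrophages, and by Ly6c2 for classical monocytes. Lineage names stand for cells that pass these gates. Marker lists that include genes outside the gates were read as a check. The 5 NK markers had a sum of 7554 CPM at day 9 and of 7545 CPM at day 12 in the NK gate, and the 5 T cell markers one of 3305 and 3462 CPM in the CD8 T cell gate. The cDC2 gate went against its name in part: its 5 cDC2 markers summed to 2279 and 2800 CPM, below the 9395 and 4057 CPM of the 9 monocyte and macrophage markers, so cDC2 below stands only for cells that pass this gate. Barcodes that met gates of more than 1 lineage were left as mixed, 8.99% at day 9 and 3.98% at day 12.

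In the knockout infiltrate CD8 T cells, classical and non-classical monocytes and plasmacytoid dendritic cells were smaller shares at day 12, and macrophages, NK cells, mature dendritic cells and cDC1 larger ones. CD8 T cells, the main killers of antigen-bearing tumour cells, were 413 of 3738 barcodes at day 9 (11%, 10.1% to 12.1%) and 62 of 2036 at day 12 (3.05%, 2.34% to 3.89%), a share ratio of 0.276 (0.212 to 0.358). In wild-type tumours the same gate held 39.1% at day 9 and 6.97% at day 12. Among T cells alone, CD8 T cells were 56% (52.4% to 59.7%) at day 9 and 29.8% (23.7% to 36.5%) at day 12. CD8 T cells were thus a smaller share at day 12 in both genotypes, and the knockout started from the lower value.

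C1q macrophages were 12% (11% to 13.1%) of the knockout infiltrate at day 9 and 24.8% (22.9% to 26.7%) at day 12, a ratio of 2.07 (1.84 to 2.32). Classical monocytes, their usual blood precursors, were 25.7% at day 9 and 15.6% at day 12, a ratio of 0.607 (0.541 to 0.681). Monocytes and macrophages together barely differed as a share of all barcodes, at 48.4% and 47.5% (ratio 0.982, 0.929 to 1.04). Counted outside T cells they were a smaller share at day 12, at 60.3% and 53% (ratio 0.878, 0.834 to 0.925). The split inside this pool differed too: macrophages were 24.8% of these cells at day 9 and 52.1% at day 12. Wild-type tumours had 14.1% monocytes and macrophages at day 9 and 49.9% at day 12, and their classical monocytes had a ratio on the other side of 1, with shares of 6.42% and 16.4% of all barcodes (ratio 2.55, 2.11 to 3.1). Within monocytes and macrophages, classical monocytes were lower at day 12 in both genotypes, at 53.2% and 32.9% in the knockout (ratio 0.618, 0.559 to 0.683) and at 45.6% and 32.9% in wild-type (ratio 0.721, 0.62 to 0.838). Non-classical monocytes, which patrol vessels, were 152 barcodes (4.07%) in the knockout at day 9 and 21 (1.03%) at day 12, a ratio of 0.254 (0.161 to 0.399) that was 0.448 after thinning to 2000 UMIs.

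Dendritic cells, which carry antigen to T cells, differed by subset. Mature dendritic cells (Fscn1, Cacnb3, Nudt17) were 64 barcodes (1.71%) at day 9 and 168 (8.25%) at day 12, a ratio of 4.82 (3.63 to 6.39), beside 1.97% and 3.16% in wild-type. Conventional dendritic cells 1 (cDC1), which cross-present to CD8 T cells, were 32 barcodes (0.856%) and 70 (3.44%), a ratio of 4.02 (2.65 to 6.08). With gates at 1 UMI that ratio was 2.65. In wild-type tumours cDC1 were about level, at 4% and 3.84%. Plasmacytoid dendritic cells (pDC), a known source of type I interferon, were a smaller share at day 12, with 146 barcodes (3.91%) at day 9 and 12 (0.589%) at day 12, a ratio of 0.151 (0.084 to 0.271). Another 99 and 9 barcodes met both the pDC gate and a dendritic cell gate and stayed mixed; with the pDC gate before the cDC2 gate the ratio was 0.137. The cDC2 share differed little, at 5.89% and 6.97% (ratio 1.19, 0.966 to 1.45).

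NK cells, innate killers, were 229 barcodes (6.13%, 5.38% to 6.94%) at day 9 and 250 (12.3%, 10.9% to 13.8%) at day 12. The share was 9.57% and 11.5% in wild-type. Shares of 1 library sum to 100, so a smaller T cell share raises the others. Counted outside T cells, the knockout ratios were 1.79 for NK cells, 4.31 for mature dendritic cells and 3.59 for cDC1, and the wild-type ratios 0.747, 0.993 and 0.595. Regulatory T cells (21 and 16 barcodes) and CD4 T cells, with ratios of 1.4 (0.732 to 2.67) and 0.794 (0.443 to 1.42), could not be told from equal shares at these numbers.

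**Figure D1:**
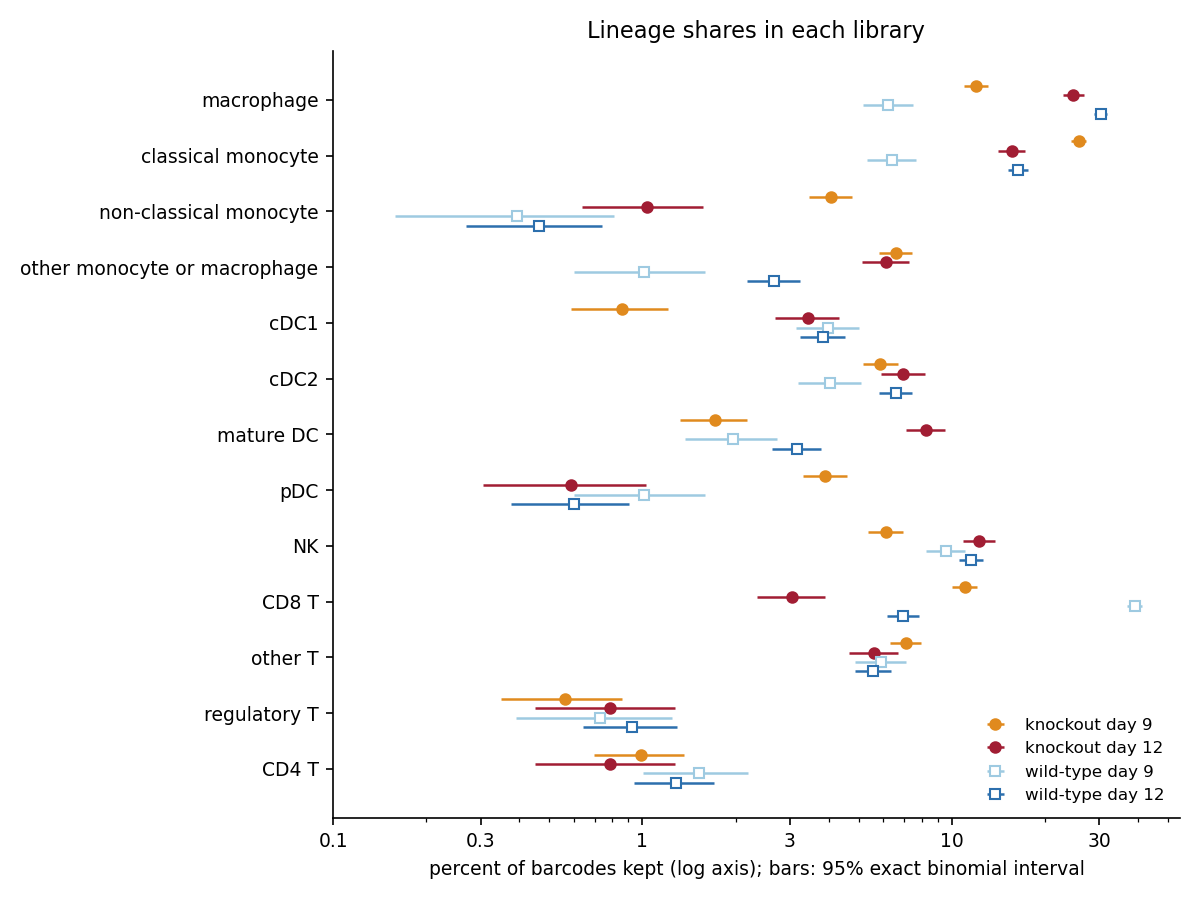
Share of each lineage among the barcodes kept in each library, in percent on a log axis, with 95% exact binomial intervals as bars. Circles are the knockout libraries and squares the wild-type libraries. Macrophages (12% and 24.8%), mature DC (1.71% and 8.25%) and cDC1 (0.856% and 3.44%) sit further right at day 12 in the knockout, and CD8 T cells (11% and 3.05%) and pDC (3.91% and 0.589%) further left.

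Expression was compared within the 8 lineages that had at least 50 barcodes in both knockout libraries, for genes with at least 20 UMIs over both. A gene counts as higher or lower below when its CPM differed by at least 2-fold, which is a size and not a test. Log2 ratios are day 12 over day 9 with 0.5 UMIs added.

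In macrophages of the knockout tumours, genes of alternative activation and tissue residence and of the type I interferon response were higher at day 12. Genes of sterol synthesis, a list chosen after the values were seen, were lower. Over all 9882 genes measured, 7.91% were higher and 3.28% lower, with a median log2 ratio of 0.01. Both libraries gave deep values here, from 448 and 504 barcodes with medians of 12084 and 11288 UMIs. Markers of some other cells were also higher in the macrophage gate at day 12, the 5 NK markers at 9.1 and 35.8 CPM and the 5 mature dendritic cell markers at 4.7 and 38.3 CPM, and the 5 T cell markers stood at 9.9 and 11.2 CPM. Their part in the results was not tested.

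Of the 24 genes in the alternative activation list, 22 reached 20 UMIs, and 13 were higher and 0 lower, with a median log2 ratio of 1.29. Retnla, a secreted protein made under interleukin-4, was at 2.52 CPM at day 9 and 2722 CPM at day 12 in the knockout, and at 616 and 1316 CPM in wild-type. The knockout ratio was 1079 (654 to 1928), and 3 of 448 barcodes held a UMI at day 9 against 244 of 504 at day 12. Wild-type day 9 had Retnla in 5 of 111 macrophages (4.5%) after thinning to 2000 UMIs, so its level also rests on few cells. Knockout day 12 had the highest level of the 4 libraries.

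Mrc1, the mannose receptor CD206, was at 98.9 and 414 CPM in the knockout (ratio 4.19, 3.83 to 4.59) and at 88.3 and 245 CPM in wild-type. Folr2, a folate receptor of resident macrophages, was at 18.3 and 372 CPM (ratio 20.3, 16.7 to 24.8), and at 14.3 and 178 CPM in wild-type. Cbr2, a carbonyl reductase, was at 16.5 and 286 CPM (ratio 17.3, 14.1 to 21.5), and at 9.25 and 113 CPM in wild-type. These 3 genes were thus higher at day 12 in both genotypes, and the highest of the 4 libraries was knockout day 12. Knockout day 12 was the highest library for 17 of the 22 list genes, 77.3%, against 24.8% of all genes measured. Genes were kept by their UMIs in the 2 knockout libraries. Members such as Cd209f, with 0 UMIs at day 9, passed only through knockout day 12. The filter thus bears on which library is highest or lowest, here and in the like counts below, and these counts only describe.

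Some members were not seen at all at day 9. Cd209f, a C-type lectin, had 0 UMIs at day 9 and 112 CPM at day 12 in the knockout, at least 223-fold higher against a floor of 3 UMIs in the day 9 library, and 0 and 20.7 CPM in wild-type. Cd163, the haemoglobin scavenger receptor, had 0 UMIs and 26.6 CPM, at least 52.8-fold higher. Lyve1, a hyaluronan receptor of perivascular macrophages, was at 2.86 and 117 CPM (ratio 40.9, 25.3 to 70.6), with its day 9 UMIs in 1 barcode and its day 12 UMIs in 55.

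These genes were often found in the same cells at day 12. Of the 23 macrophage barcodes with a Cd209f UMI, 18 had Lyve1, 20 had Fcna (a ficolin lectin) and 15 had Cd209g, which is 78.3%, 87% and 65.2%, against 7.69%, 9.15% and 0.416% of the other 481. Folr2 was seen in 224 of 504 barcodes, of which 60.3% had Cbr2 and 23.7% Lyve1, against 12.9% and 0.714% of the 280 without it. Spp1, osteopontin, was seen in 35.7% of the Folr2 barcodes and in 31.1% of the rest. The Cd209f and Lyve1 cells were therefore a part of a wider Folr2 group. Without thinning, Spp1 was also in 30.4% of the NK barcodes of this library. Its shares are thus near background and cannot decide whether it separated along that line.

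Breadth was checked after thinning every barcode to 2000 UMIs, with NK cells as the lineage that should lack these genes; no macrophage or NK barcode was below that depth, and NK barcodes had medians of 3942 and 4767 UMIs. Mrc1 was then in 13.4% of macrophages at day 9 and 50.2% at day 12 (42.4% and 83.7% before thinning), with 0.437% and 0.4% of NK cells. Retnla was in 0.223% and 26.6% of macrophages (0.67% and 48.4% before thinning) and in 0% and 6.4% of NK cells. Shares near the NK share are read as background, and the macrophage shares of both genes at day 12 lay above it.

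**Figure D2:**
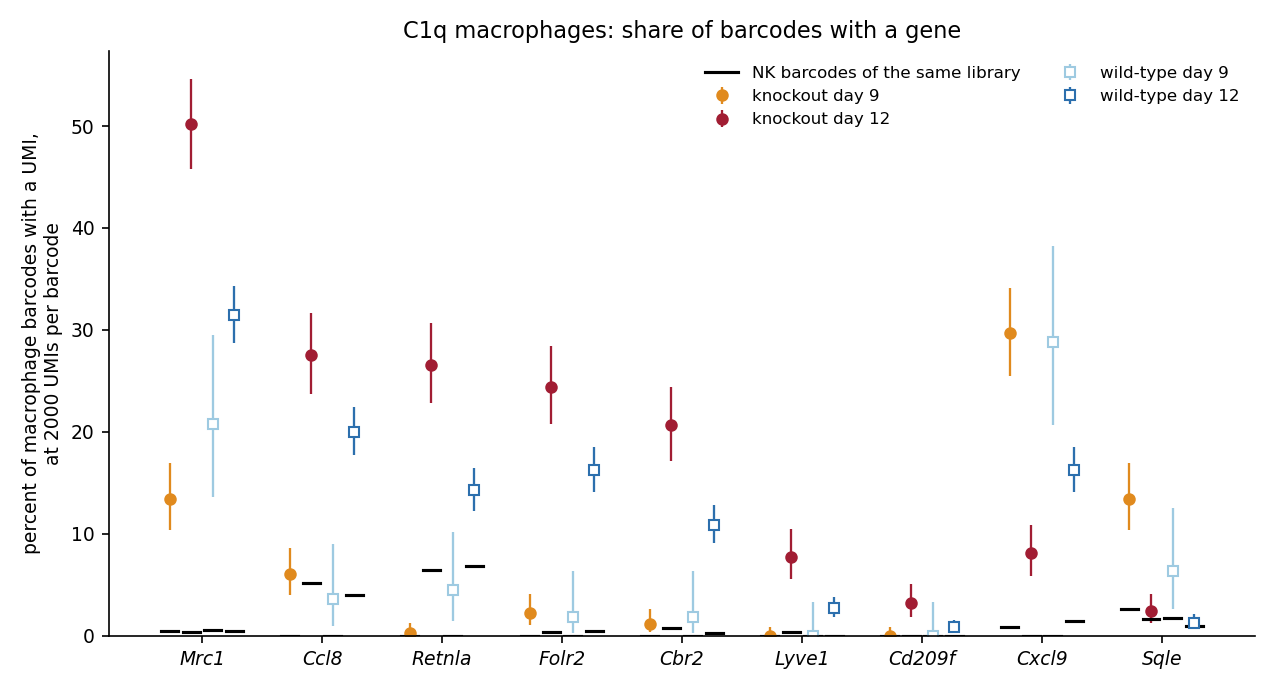
Percent of C1q macrophage barcodes with at least 1 UMI of each gene after thinning to 2000 UMIs per barcode, with 95% exact binomial intervals; black lines give the same share in NK barcodes of each library. Mrc1 (13.4% and 50.2%) and Retnla (0.223% and 26.6%) stand higher in the knockout at day 12, and Cxcl9 (29.7% and 8.14%) and Sqle (13.4% and 2.38%) lower.

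Chemokine genes differed in both directions, with 4 of 19 in the list higher, 4 lower and a median log2 ratio of 0.10. Ccl8, Pf4 and Ccl24 were among the higher members, and Cxcl9, given below, was among the lower ones. Ccl8, a chemokine that draws monocytes and T helper 2 cells, was at 248 CPM at day 9 and 2271 CPM at day 12 (ratio 9.15, 8.67 to 9.66), and at 114 and 860 CPM in wild-type. Pf4, a platelet-type chemokine also made by macrophages, was at 544 and 1251 CPM (ratio 2.3, 2.21 to 2.4). Ccl24, an eosinophil chemokine, was at 148 and 312 CPM (ratio 2.11). Arg1, arginase, which depletes arginine, did not pass the 2-fold size with 343 and 405 CPM, and in wild-type it was at 9.25 and 180 CPM. Day 9 knockout macrophages therefore had Arg1 near its day 12 level while Retnla was nearly absent.

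The type I interferon list holds antiviral effectors and sensors switched on by a complex that includes STAT2 and IRF9. Of its 25 genes, 24 reached 20 UMIs, and in knockout macrophages 23 were higher at day 12 and 0 lower (median log2 ratio 1.46). In wild-type macrophages, where 6.92% of all genes were higher and 3.75% lower, 0 of the list were higher and 3 lower (median -0.48). Irf7, the factor that amplifies type I interferon production, was at 137 and 483 CPM in the knockout (ratio 3.53, 3.26 to 3.82) and at 792 and 613 CPM in wild-type. Isg15, a ubiquitin-like protein, was at 286 and 847 CPM (ratio 2.96, 2.8 to 3.13), against 1615 and 889 CPM. Ifit3, an antiviral protein of the IFIT family, was at 50.1 and 176 CPM (ratio 3.52, 3.09 to 4.02), against 268 and 183 CPM. In each of these genes knockout day 9 stood apart, and knockout day 12 was close to wild-type day 12.

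That order held across the list. Knockout day 9 was the lowest of the 4 libraries for 24 of 24 list genes in macrophages, against 27.6% of all genes measured, and wild-type day 9 was the highest for 21 of 24. Irf9, a subunit of the complex itself, was the member within 2-fold, at 40.9 and 53.1 CPM (ratio 1.3, 1.1 to 1.54). Ifi44 rested on 2 UMIs at day 9 and was at 0.336 and 17.3 CPM (ratio 51.5, 13.9 to 431). The genes were seen in many cells: after thinning, Isg15 was in 28.6% of macrophages at day 9 and 61.1% at day 12 (9.17% and 8% of NK cells), and Ifit3 in 5.13% and 24% (0.437% and 2% of NK cells).

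The promoters of 3 members and of Cxcl10 are shown because they carry the interferon-stimulated response element, searched as GAAANNGAAA on both strands in 250 bases before the start; matches are in capitals (RefSeq, GRCm38.p6). Ifit3 is chr19:34583353-34583472 on the plus strand with 2 matches. Isg15 is chr4:156200819-156200938 on the minus strand with 3 overlapping matches. Rsad2, which encodes viperin, is chr12:26456473-26456592 on the minus strand with 1 match. Cxcl10, from the interferon-gamma list, is chr5:92349003-92349122 on the minus strand with 1 match.
Ifit3: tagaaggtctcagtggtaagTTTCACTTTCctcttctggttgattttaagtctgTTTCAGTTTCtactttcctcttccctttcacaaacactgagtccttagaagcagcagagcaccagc
Isg15: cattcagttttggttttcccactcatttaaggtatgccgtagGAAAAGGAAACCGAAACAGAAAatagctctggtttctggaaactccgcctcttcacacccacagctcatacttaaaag
Rsad2: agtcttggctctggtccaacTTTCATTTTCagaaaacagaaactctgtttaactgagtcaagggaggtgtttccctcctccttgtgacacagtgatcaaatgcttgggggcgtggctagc
Cxcl10: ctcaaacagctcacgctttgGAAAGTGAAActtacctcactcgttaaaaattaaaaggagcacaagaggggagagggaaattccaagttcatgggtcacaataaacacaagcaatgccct
The motif was found in 9 of 24 promoters of the type I list (37.5%; 20 of its 25 genes matched by symbol), in 12 of 23 promoters of the interferon-gamma list (52.2%; 21 of 32 genes) and in 978 of 32851 RefSeq promoters (2.98%). The motif was thus found in promoters of both lists, whose medians differed in macrophages. Promoters on a chromosome named below were left out of these counts. Rsad2 was at 70.6 and 157 CPM in the knockout and Cxcl10 at 481 and 432 CPM.

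The interferon-gamma list as a whole was level in macrophages, and its best-known T cell chemokine was not. Of its 32 genes, 30 reached 20 UMIs, with 1 higher, 3 lower and a median of -0.08. Cxcl9, which draws CXCR3-bearing T cells, was at 609 and 132 CPM (ratio 0.217, 0.201 to 0.235), and at 503 and 259 CPM in wild-type. Gbp2, a guanylate-binding protein, was at 620 and 216 CPM (ratio 0.349, 0.327 to 0.372), and at 962 and 471 CPM in wild-type. Nos2, inducible nitric oxide synthase, was at 5.72 and 1.66 CPM (ratio 0.291, 0.128 to 0.603), and at 5.05 and 11.2 CPM in wild-type. These 3 genes were the lower members, while Cxcl10 (ratio 0.898) and Irf1 (106 and 99 CPM) stood near 1. After thinning, Cxcl9 was in 29.7% of macrophages at day 9 and 8.14% at day 12.

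Sterol synthesis genes make the enzymes from acetyl-CoA to cholesterol and are known targets of the factor SREBP2. This list, like those of sterol uptake, sterol efflux, glutathione and interleukin-17 type T cells below, was chosen after the values were seen, so its counts describe and support nothing. Of its 20 genes, 0 were higher and 17 lower in day 12 macrophages (median log2 ratio -2.10). In wild-type 5 of 20 were lower, with a median of -0.46. Sqle, squalene epoxidase, was at 71.6 and 7.49 CPM (ratio 0.104, 0.0751 to 0.142), and at 19.4 and 7.43 CPM in wild-type. Hmgcs1, which makes HMG-CoA, the precursor of mevalonate, was at 83.4 and 13.5 CPM (ratio 0.162, 0.126 to 0.205), and at 34.5 and 13.2 CPM in wild-type. Cyp51, which removes a methyl group from lanosterol, was at 124 and 18.3 CPM (ratio 0.148), and at 42.1 and 15.1 CPM in wild-type. Here too the day 12 libraries of both genotypes had like levels. Knockout day 9 was the highest of the 4 for 20 of 20 genes, beside 30.1% of all genes measured. Choosing the list after these values were seen favours such a gap, so it supports nothing. Ebp (ratio 0.831), Pmvk (0.551) and Tm7sf2 (0.54) were the members within 2-fold.

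The Hmgcs1 promoter is shown for the sterol regulatory element, searched as TCACNCCAC on both strands, with the match in capitals (RefSeq, GRCm38.p6, chr13:119690194-119690313, plus strand). It was the 1 match among 18 promoters of the list (5.56%; 15 of 20 genes matched by symbol), beside 346 of 32851 promoters (1.05%).
Hmgcs1: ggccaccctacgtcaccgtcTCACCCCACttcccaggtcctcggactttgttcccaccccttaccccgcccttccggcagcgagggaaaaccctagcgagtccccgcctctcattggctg
Genes of uptake and sensing shared the direction, with 5 of 8 lower and a median of -1.04. In the efflux list 3 of 8 were higher. Abca1, which exports cholesterol to lipoproteins, was at 13.3 and 48.1 CPM (ratio 3.62, 2.81 to 4.7), and at 5.89 and 28.2 CPM in wild-type.

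**Figure D3:**
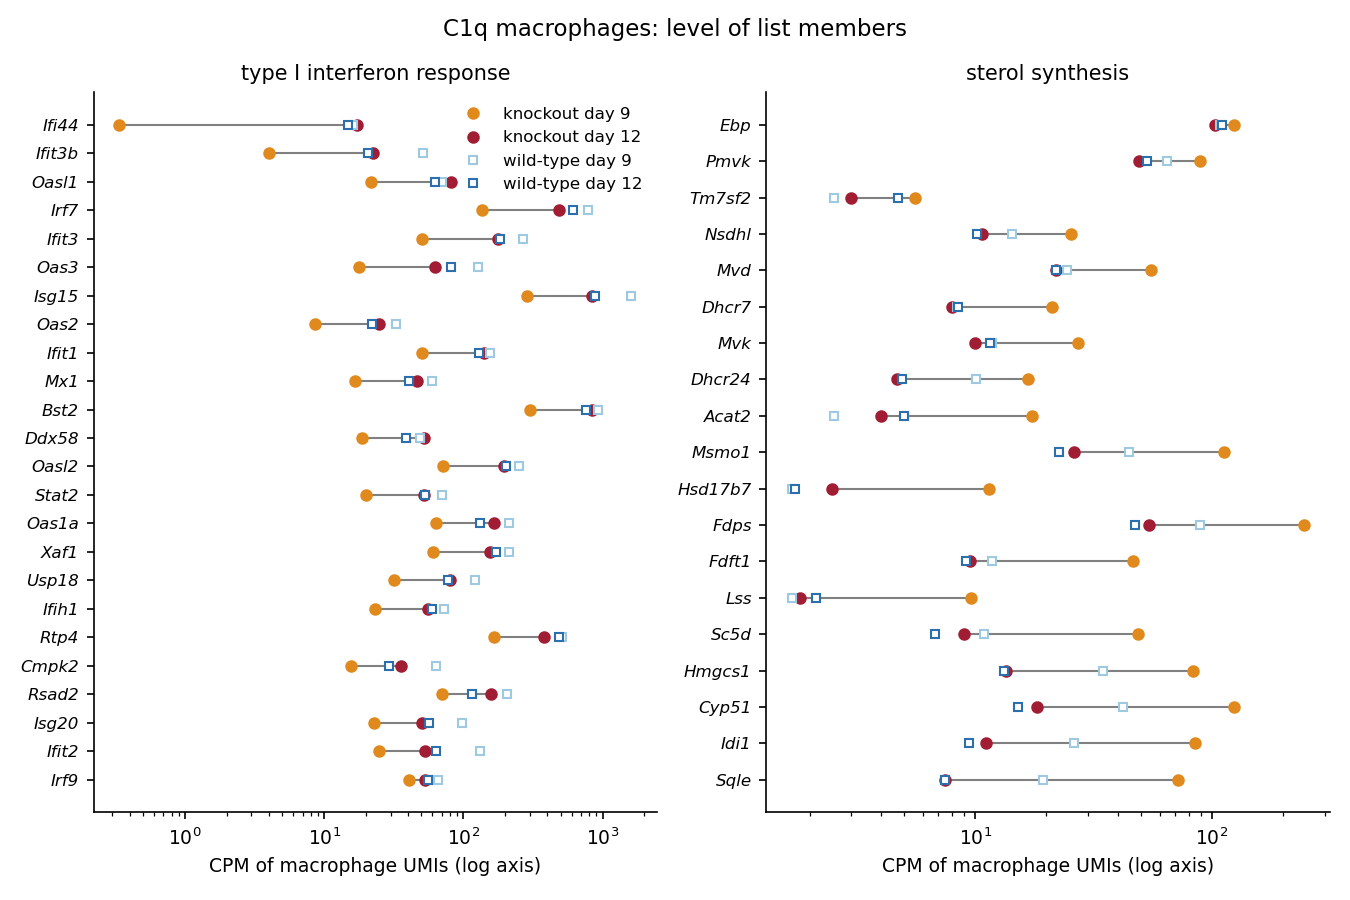
Level of the type I interferon genes and of sterol synthesis genes (all but 1 of the list) in C1q macrophages, in CPM on a log axis, for the 4 libraries, with a grey line joining the knockout days. Knockout day 9 is the lowest point for 24 of 24 interferon genes (Isg15, 286 CPM against 847, 1615 and 889) and the highest for every sterol gene drawn (Sqle, 71.6 CPM against 7.49, 19.4 and 7.43). The sterol list was chosen after these values were seen.

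Some inflammatory and lipid-handling genes were lower in day 12 macrophages. The inflammatory list had 5 lower of 17, among them Tnf and Ptgs2, and 3 higher, which were S100a8, S100a9 and Saa3, with a median of -0.58. Il1b, interleukin-1 beta, was at 368 and 130 CPM (ratio 0.353), and at 100 and 96.2 CPM in wild-type. Spp1 was at 1194 and 454 CPM (ratio 0.38), and at 210 and 241 CPM in wild-type. Its thinned share of macrophages was 32.4% and 16.5%, beside 6.11% and 22.4% of NK cells, so the day 12 macrophage share lay below that of NK cells. Lpl, lipoprotein lipase, was at 1422 and 558 CPM (ratio 0.392), and Cd9, a tetraspanin, at 282 and 111 CPM (ratio 0.394, 0.36 to 0.431). The whole lipid and lysosome list had 1 higher and 3 lower of 23, with a median of -0.03, and Trem2 (223 and 250 CPM) and Apoe (3307 and 3942 CPM) differed little. Gsr, glutathione reductase, was at 47.6 and 7.49 CPM (ratio 0.157), in a glutathione and thioredoxin list with 0 higher and 4 lower of 15. Ocstamp, a protein of cell fusion, was at 15.3 and 0.666 CPM (ratio 0.0435, 0.0116 to 0.115).

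Cell cycle genes were higher in day 12 macrophages, with 8 of 25 higher, 0 lower and a median of 0.90, against 9 of 25 and 0.45 in wild-type. Without the barcode with the most UMIs of each gene, 13 were higher. Mki67, the Ki-67 antigen, was at 6.39 and 24 CPM (ratio 3.75, 2.61 to 5.51), and Top2a, topoisomerase, at 14 and 41.6 CPM (ratio 2.98). Barcodes with at least 2 UMIs over 12 cycle genes after thinning were 3.35% at day 9 and 6.55% at day 12. MHC class II genes, with 0 of 13 past 2-fold, differed little in macrophages. The list of reported miR-155 targets, with 1 of 26 higher, 0 lower and a median of 0.07, also differed little there. Both days came from knockout tumours, so the target list, here and in T cells below, gives no reading of the deletion.

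In classical monocytes some type I interferon and MHC class II genes, 5 of 24 and 5 of 13, were higher at day 12, and 13 of 20 sterol synthesis genes were lower. Of 9465 genes, 3.38% were higher and 6.46% lower, with a median log2 ratio of -0.08. In the MHC class II list 5 of 13 were higher and 1 lower. Cd74, the invariant chain, was at 7245 and 20190 CPM (ratio 2.79, 2.75 to 2.82), and at 16020 and 23850 CPM in wild-type. H2-Ab1, the beta chain that presents peptides to CD4 T cells, was at 2781 and 7150 CPM (ratio 2.57), and at 6238 and 8911 CPM in wild-type. H2-Aa (2.58), H2-Eb1 (2.81) and Cd80 (2.09) were the other higher members. Ciita, the regulator of these genes, was at 29.2 and 25.1 CPM, and H2-Oa, the lower member, rested on 1 UMI at day 12. Knockout day 9 monocytes therefore stood below the other 3 libraries in Cd74 and H2-Ab1.

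Genes of macrophage alternative activation were present in day 12 monocytes below the C1q gate, with 5 of 16 higher and 1 lower. Mrc1 was at 28.3 and 224 CPM (ratio 7.92, 6.82 to 9.22), and its thinned share was 3.12% and 28.3%. Folr2 was at 0.574 and 47.7 CPM (ratio 83.1, 34.7 to 260), and at 0 and 15.2 CPM in wild-type. Retnla was at 7.47 and 311 CPM, with 41.1% of the day 12 UMIs in 1 barcode, and its thinned share of 10.1% stood beside 6.4% of NK cells. Ccl8 had the same thinned share of 10.1% beside 5.2% of NK cells, so neither is far above background in monocytes.

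The type I interferon list had 5 of 24 higher and 0 lower, with a median of 0.71, against 0 higher and 1 lower in wild-type (3.56% and 6.11% of all genes). Oas1a, a sensor of double-stranded RNA, was at 85.7 and 213 CPM (ratio 2.48), and Bst2, tetherin, at 308 and 758 CPM (ratio 2.46). In the wild-type monocytes Bst2 was at 690 and 747 CPM. As in macrophages, knockout day 9 was the lowest of the 4 libraries for 24 of 24 genes, against 20.6% of all genes measured. The interferon-gamma list had 1 higher and 6 lower of 29, with a median of -0.44. Cxcl9 was at 693 and 143 CPM (ratio 0.206, 0.186 to 0.229), and at 275 and 299 CPM in wild-type, and its thinned share was 25.9% and 7.23%. Gbp2 was at 1199 and 323 CPM (ratio 0.27).

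Sterol synthesis genes were lower for 13 of 20 with 0 higher and a median of -1.26, and in wild-type for 7 of 17. Sqle was at 82.4 and 10.7 CPM (ratio 0.13), and at 26.5 and 6.99 CPM in wild-type. The glutathione and thioredoxin list had 0 higher and 5 lower of 15. Gsr was at 307 and 48.8 CPM (ratio 0.159, 0.132 to 0.189), and at 162 and 21.8 CPM in wild-type. Txnrd1, thioredoxin reductase, was at 110 and 24.4 CPM (ratio 0.222), and Nfe2l2, the factor NRF2 that drives both, at 301 and 124 CPM (ratio 0.411). Wild-type monocytes had the same direction for these 3 genes, with Txnrd1 at 49.3 and 18.4 CPM and Nfe2l2 at 133 and 83.2 CPM.

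The remaining monocytes and macrophages, 247 barcodes at day 9 and 125 at day 12 with neither the C1q nor the Ly6c2 level, had 3.99% of 7551 genes higher and 6.32% lower, with a median of -0.09. The type I interferon list had 8 of 22 higher and 0 lower (median 0.91), the interferon-gamma list 0 higher and 6 lower of 26 (median -0.39), and sterol synthesis 0 higher and 13 lower of 19 (median -1.36). Cxcl9 was at 341 and 39.9 CPM (ratio 0.117), and Isg15 at 249 and 527 CPM (ratio 2.12). Retnla had 0 UMIs at day 9 and 1665 CPM at day 12, at least 1341-fold higher against a floor of 3 UMIs in the day 9 library. It was in 41 of the 125 day 12 barcodes without thinning, beside 21.2% of NK barcodes of that library. The part of background in this value was not tested. Cell cycle genes were higher for 7 of 15 and lower for 2, but 1 was higher among genes with at least 50 UMIs. Cycling barcodes were 1 of 247 (0.405%) and 10 of 125 (8%, 3.9% to 14.2%), so the cell cycle counts rest on few cells.

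In cDC2, 14 of 27 interferon-gamma response genes and 12 of 20 sterol synthesis genes were lower at day 12 and the lectin gene Mgl2 was higher. Of 8016 genes, 3.17% were higher and 6.75% lower, with a median of -0.07. The interferon-gamma list had 0 higher and 14 lower of 27, with a median of -1.11, against 0 higher, 2 lower of 29 and -0.37 in wild-type (3.65% and 5.5% of all genes). Iigp1, an immunity-related GTPase, was at 109 and 11.7 CPM (ratio 0.107, 0.0623 to 0.172), and at 124 and 94.1 CPM in wild-type. Gbp2 was at 491 and 84.1 CPM (ratio 0.171), and at 331 and 352 CPM in wild-type. Cxcl9 was at 493 and 65.3 CPM (ratio 0.133, 0.107 to 0.163), with 54.5% of the day 12 UMIs in 1 barcode. Knockout day 12 was the lowest of the 4 libraries for 21 of 27 list genes (77.8%), against 26% of all genes measured. After thinning, Gbp2 was in 28.6% and 9.86% of cDC2, beside 5.68% and 5.6% of NK cells.

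Monocyte and macrophage transcripts were lower in the same gate. The 9 markers of that lineage summed to 9395 CPM in the cDC2 gate at day 9 and 4057 CPM at day 12, and the 3 classical monocyte markers to 1343 and 729.2 CPM. The monocyte list had 0 higher and 7 lower of 14, with a median of -0.90. Hp, haptoglobin, was at 117 and 8.41 CPM, and Chil3, a chitinase-like protein, at 51.2 and 3.23 CPM. With gates at 4 UMIs, 12 interferon-gamma genes were lower. Whether that stricter gate held fewer monocyte and macrophage transcripts was not read, so it cannot decide their part in the result, which was not tested.

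Type I interferon genes in cDC2 were higher for 4 of 24 and lower for 0, with a median of 0.57, and in wild-type 0 were higher and 4 lower. Irf7 was at 221 and 395 CPM (ratio 1.78), and Ifit3b at 8.81 and 29.1 CPM (ratio 3.3). Sterol synthesis genes were lower for 12 of 20 (median -1.29) in the knockout and for 2 of 19 (median -0.02) in wild-type. Hmgcs1, whose promoter is given above, was at 228 and 39.5 CPM (ratio 0.173), and at 71.7 and 33.2 CPM in wild-type. Mgl2, a galactose lectin of cDC2 known to depend on interleukin-4 type signals, was at 339 and 1380 CPM (ratio 4.07, 3.75 to 4.42), and at 429 and 1048 CPM in wild-type. Its thinned share of the gate was 19.1% and 50.7%. Monocyte and macrophage markers were lower in this gate at day 12, and their part in the Mgl2 share was not tested.

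Mature dendritic cells, migratory cells that have taken up antigen, had the largest share ratio of all gates, and 284 of 5871 genes (4.84%) were higher and 381 (6.49%) lower. TMM factors moved all log2 ratios of this lineage by 0.15 and turned this split to 398 higher and 263 lower. The maturation list had 3 of 26 higher and 0 lower, with a median of 0.18. Ccr7, the receptor that guides these cells to lymph nodes, was at 2835 and 2357 CPM, Cd40 at 250 and 243 CPM and Cd274, PD-L1, at 130 and 144 CPM. Il12b, the interleukin-12 p40 chain, was at 120 and 273 CPM (ratio 2.27), and at 414 and 168 CPM in wild-type. Tnfrsf9 (106 and 270 CPM) and Ccl9 were the other higher members, and most of the list was within 2-fold. Wild-type values of mature dendritic cells, here and below, rest on only 35 barcodes at day 9. That is under the minimum of 50 set for the knockout libraries, so no day effect is read from them.

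MHC class II genes were lower for 6 of 13 mature dendritic cell genes, with a median of -0.89. H2-Ab1 was at 4315 and 2156 CPM (ratio 0.5), and at 3612 and 3367 CPM in wild-type. H2-Oa, a subunit that restrains peptide loading, was at 138 and 30.3 CPM (ratio 0.22). Ciita was at 36.4 and 13.2 CPM (ratio 0.361). The 9 monocyte and macrophage markers were also lower in this gate, at 1535 and 729.7 CPM, and their part was not tested. The interferon-gamma list had 0 higher and 11 lower of 25, with a median of -0.74, and 2 were lower with gates at 4 UMIs. Iigp1 was at 61.8 and 3.95 CPM (ratio 0.064), and Cxcl9 at 244 and 79 CPM (ratio 0.324). The type I list had 7 higher and 0 lower of 20, with Irf7 at 68.1 and 256 CPM (ratio 3.76). Sterol synthesis genes were lower for 12 of 15 (median -1.42).

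Stxbp6, an inhibitor of vesicle fusion, was higher and lay in many cells. It was at 33.3 and 262 CPM (ratio 7.88, 5.08 to 12.9), in 14 of 64 and 111 of 168 barcodes, and its thinned share was 4.69% and 35.1%, beside 1.34% and 6.75% of macrophages. Wild-type values were 77 and 147 CPM. Mfge8, a bridge for apoptotic cells, was at 7.92 and 207 CPM with 91.1% of the day 12 UMIs in 1 barcode, so it does not describe the lineage. S100a10, a calcium-binding protein, was at 366 and 1276 CPM (ratio 3.49).

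In knockout NK cells Gzmb, Prf1, 8 of 23 glycolysis genes and 12 of 25 cell cycle genes were higher at day 12, and 5 of 20 interferon-gamma response genes were lower. Of 7493 genes, 4.72% were higher and 4.47% lower, with a median of -0.00. The cytotoxic and effector list had 5 higher and 3 lower of 26, with a median of -0.20, and the 33-gene NK receptor list had 0 of 30 past 2-fold. Gzmb, granzyme B, was at 939 and 2173 CPM (ratio 2.31, 2.16 to 2.48), and at 1809 and 2192 CPM in wild-type. Prf1, perforin, which opens the target membrane, was at 67 and 181 CPM (ratio 2.7, 2.09 to 3.52), and at 87.7 and 90.4 CPM in wild-type. Gzma, granzyme A, was at 5221 and 5556 CPM. Of these killing genes, Gzmb and Prf1 were thus higher and Gzma level in the knockout, and after thinning Gzmb was in 47.2% and 69.6% of NK cells and Prf1 in 11.4% and 20.8%.

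Gzmd and Gzme, granzymes of strongly stimulated killers, lay in few cells. Gzmd was at 39.3 and 287 CPM (ratio 7.31, 5.36 to 10.2), in 3 and 13 barcodes with 93.2% of the day 9 UMIs in 1, and at 578 and 221 CPM in wild-type. Gzme was at 42 and 145 CPM (ratio 3.46), in 2 and 12 barcodes. Klrg1, a receptor of mature NK cells, was at 75.9 and 178 CPM (ratio 2.35). Ifng was level at 94.7 and 98.3 CPM (ratio 1.04, 0.809 to 1.34), and at 78 and 83 CPM in wild-type. The Ifng level of NK cells did not differ beyond counting error. On the lower side stood Gzmk (17 and 5.85 CPM), Ccl3 (506 and 249 CPM) and Ccl4 (1041 and 504 CPM). Single barcodes held 71.6% of the day 9 Ccl3 UMIs and 45.1% of the day 9 Ccl4 UMIs. Without its top barcode Ccl3 turned to a log2 ratio of 0.305, and with gates at 4 UMIs Ccl3 and Ccl4 turned to 0.807 and 0.315.

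The hypoxia and glycolysis list had 8 of 23 higher and 1 lower, with a median of 0.51, against 0 higher and 2 lower in wild-type (3.46% and 5.77% of all genes). Eno1, enolase, was at 375 and 1194 CPM (ratio 3.18, 2.87 to 3.54), and at 742 and 902 CPM in wild-type. Pgk1, phosphoglycerate kinase, was at 23.2 and 84.3 CPM (ratio 3.63), and Slc16a3, the lactate exporter MCT4, at 14.3 and 48 CPM (ratio 3.36). The cell cycle list had 12 of 25 higher and 0 lower, with a median of 0.94, and 6 higher in wild-type; with gates at 4 UMIs the knockout count was 6. Mki67 was at 14.3 and 64.4 CPM (ratio 4.5, 2.65 to 8.15), and at 40.3 and 61.7 CPM in wild-type. Cycling barcodes after thinning were 8 of 229 (3.49%) and 20 of 250 (8%).

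The interferon-gamma list was lower in NK cells for 5 of 20 with 0 higher and a median of -0.71 (3 of them under means over barcodes), and in wild-type for 4 of 23. Irgm1, an immunity-related GTPase, was at 49.1 and 14 CPM (ratio 0.286), and at 74.5 and 22.6 CPM in wild-type. The type I list had 0 higher and 1 lower of 15, and sterol synthesis 1 higher and 0 lower of 17, unlike the counts in macrophages, a difference that was not tested. Spp1 was at 213 and 1301 CPM in NK cells (ratio 6.12, 5.35 to 7.02), above the 454 CPM of macrophages at day 12, and at 625 and 419 CPM in wild-type. Other transcripts of myeloid cells were seen in the NK gate: Retnla had 0 UMIs at day 9 and was in 53 of 250 barcodes at day 12, and the 9 monocyte and macrophage markers summed to 277.8 and 348.2 CPM. The 5 T cell markers summed to 374.2 and 667.1 CPM there, and their part in the NK results was not tested. MHC class II genes, 6 of 9 higher in this gate, had 35.1% of the day 12 H2-Ab1 UMIs in 1 barcode. The part of other cells in these class II values was not tested.

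**Figure D4:**
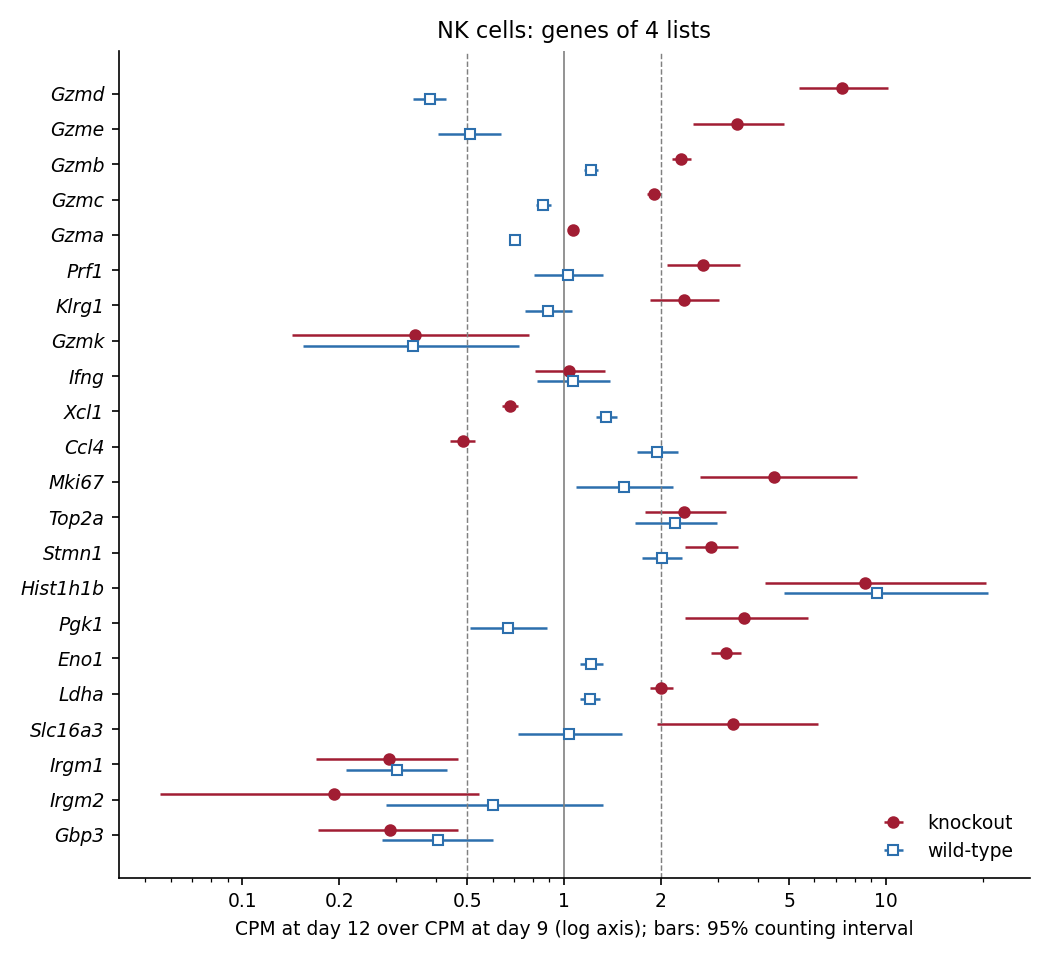
CPM ratio of day 12 over day 9 for cytotoxic, cell cycle, glycolysis and interferon-gamma genes in NK cells, on a log axis, with 95% counting intervals; circles are knockout, squares wild-type, and dashed lines mark 2-fold. Gzmb (2.31), Prf1 (2.7), Eno1 (3.18) and Mki67 (4.5) lie to the right of the 2-fold line in the knockout, and Irgm1 (0.286) lies to the left.

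CD8 T cells lacking miR-155 had lower chemokine and interferon-gamma transcripts at day 12, but 62 barcodes with a median of 4067.5 UMIs carry the day 12 values, against 413 with a median of 4852. Of 7185 genes, 397 (5.53%) were higher and 622 (8.66%) lower, with a median of 0.04; TMM factors gave 284 and 710, and leaving out the top barcode of each gene gave 216 and 1223. Ifng was at 412 and 70 CPM (ratio 0.17, 0.106 to 0.259), and at 304 and 670 CPM in wild-type. A single barcode held 60.9% of the day 9 Ifng UMIs. The thinned share with Ifng was 6.54% and 4.84% in the knockout and 31.6% and 15.6% in wild-type, so few knockout CD8 T cells had the transcript at either day. Xcl1, the chemokine that draws cDC1, was at 1376 and 95.5 CPM (ratio 0.0694, 0.0467 to 0.0992), in 109 and 7 barcodes, with 48.2% of the day 9 UMIs in 1. Wild-type Xcl1 was at 214 and 357 CPM, and the thinned knockout share was 17.9% and 3.23%.

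Ccl1, Ccl3 and Ccl4, chemokines released on activation, were also lower in CPM and also held much of their day 9 signal in single barcodes (54.3%, 41.7% and 45.5% of UMIs). Ccl1 was at 426 and 47.7 CPM (ratio 0.112), in 20 and 1 barcodes. Ccl4 was at 1056 and 143 CPM (ratio 0.136), and its thinned share was 9.2% and 12.9%, beside 17.6% and 14.1% of macrophages, which make it too. The share of cells with Ccl4 was thus not lower while the CPM was. Ccl3 was at 681 and 181 CPM (ratio 0.266). Without the barcode with the most UMIs in each library, the log2 ratio was -4.79 for Ccl3 in CD8 T cells, -2.62 for Ccl4 in CD8 T cells, -3.49 for Ifng in CD8 T cells and -4.42 for Xcl1 in CD8 T cells. For Ccl1 that left 0 UMIs at day 12. Leaving out a barcode takes a larger part of the 62 at day 12 than of the 413 at day 9. Over all genes this setting gave 216 higher and 1223 lower. It thus leans to the lower side and cannot decide whether Ccl3, Ccl4, Ifng and Xcl1 were lower apart from single barcodes.

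Gzmb, Pdcd1 and Nkg7 were within 2-fold. Gzmb was at 210 and 379 CPM (ratio 1.81), and at 2136 and 1499 CPM in wild-type. Pdcd1, the receptor PD-1, was at 102 and 92.3 CPM (ratio 0.902, 0.592 to 1.33), and at 420 and 213 CPM in wild-type. Nkg7, a granule protein, was at 1609 and 1521 CPM. The cytotoxic and effector list had 1 higher and 4 lower of 22, with a median of -0.02, and 9 lower without top barcodes. Tcf7, the factor TCF1 of naive and memory cells, was at 214 and 270 CPM (ratio 1.26), and at 26.2 and 95.5 CPM in wild-type. The naive and memory list had 1 of 17 higher in the knockout and 12 in wild-type (5.08% of all genes), where Tcf7 was lower at day 9.

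Response genes to interferon-gamma were lower in CD8 T cells for 6 of 24 and higher for 1, with a median of -0.54, and 11 were lower without top barcodes. In wild-type 4 of 27 were higher and 0 lower (5.08% and 7.45% of all genes). Irgm1 was at 92.5 and 28.6 CPM (ratio 0.309, 0.14 to 0.598). Iigp1 rested on 1 UMI at day 12, with 44.8 and 3.18 CPM (ratio 0.071, 0.00178 to 0.404). Inhibitory receptor genes were higher for 2 and lower for 4 of 13. Rgs16, a signalling regulator in that list, rested on 3 UMIs at day 12, with 75.4 and 9.55 CPM (ratio 0.127, 0.0259 to 0.376). The reported miR-155 targets had 0 higher and 3 lower of 22 in these cells, namely Rictor, Smad2 and Myb, beside 8.66% of all genes lower. S100a8 and S100a9, neutrophil proteins, were among the most different genes at 0.815 and 360 CPM and 1.63 and 229 CPM. A single barcode held 99.1% of the day 12 S100a8 UMIs, and the 5 neutrophil markers summed to 3.26 CPM (3 of 5 seen) and 611 CPM (5 of 5 seen).

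Other T cells were those outside the CD8, CD4 and regulatory T cell gates, 266 barcodes at day 9 and 114 at day 12. Barcodes with both Cd8 and Cd4 UMIs fell here too, as did T cells of any type without a UMI of Cd8, Cd4 or Foxp3. The 4 regulatory T cell markers summed to 589.6 and 557.3 CPM in this gate, beside 200.6 and 178.2 CPM in CD8 T cells. The part of CD4 and regulatory T cells in this gate was not tested. The gate held 48 Cd8 and 14 Cd4 UMIs at day 9, and 11 and 4 at day 12. Some transcripts of gamma-delta and interleukin-17 type T cells, such as Cd163l1, Blk and Maf, were higher in this gate at day 12. Of 6159 genes, 322 (5.23%) were higher and 305 (4.95%) lower, with a median of 0.08; TMM factors gave 239 and 403. In the interleukin-17 type list, 9 of 15 genes reached 20 UMIs, with 7 higher and 2 lower. In wild-type 2 were higher and 1 lower of 7 (2.9% and 6.31% of all genes). In the knockout 4 were higher among genes with at least 50 UMIs. The list was chosen after the values were seen, and Blk, with 19 UMIs at day 12, passed the filter through that day. These counts thus only describe and support nothing. Cd163l1, the scavenger receptor SCART1 of gamma-delta T cells, was at 10.7 and 74.3 CPM (ratio 6.93, 3.57 to 14.3), in 5 and 12 barcodes, and at 10.6 and 12.8 CPM in wild-type. Its thinned share was 1.13% and 7.89%, with 0% of macrophages at both days. Blk, a kinase of such cells, was at 1.65 CPM (2 UMIs) and 41.5 CPM (ratio 25.2, 6.08 to 223), with a thinned share of 0.376% and 6.14%. Maf, the factor c-MAF, was at 17.3 and 112 CPM (ratio 6.44, 3.8 to 11.3), with a thinned share of 1.88% and 16.7%. Macrophages express Maf too (20.5% and 45.8%), so they give no background for it.

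Il17a, the cytokine, lay in 1 cell. It was at 66.8 CPM at day 9, with all 81 UMIs in 1 barcode, and had 0 UMIs at day 12, at least 10.2-fold lower against a floor of 3 UMIs; without the top barcode its log2 ratio turned to 1.41. The interferon-gamma list had 0 higher and 4 lower of 24, with a median of -0.23. Irgm1 was at 119 and 24 CPM (ratio 0.203), and at 115 and 53.7 CPM in wild-type. The reported miR-155 targets had 1 higher, which was Maf, and 2 lower of 23. Red blood cell and neutrophil transcripts were high at day 12: Hbb-bs, beta globin, was at 4.95 and 1246 CPM with 98.9% of the day 12 UMIs in 1 barcode, and the neutrophil markers summed to 5.77 and 662 CPM.

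Across the lineages, the type I interferon and sterol synthesis medians were farther from 0 in the myeloid and dendritic lineages than in lymphocytes, and the interferon-gamma medians were below 0 in all 8 lineages. These differences between lineages were not tested, and the sterol synthesis list was chosen after the values were seen. The type I interferon medians lay between 0.57 and 1.46 in the 5 myeloid and dendritic lineages, and at -0.17, -0.27 and 0.04 in NK cells, CD8 T cells and other T cells. Sterol synthesis medians lay between -2.10 and -1.26 in the former, and NK cells (0.17) and CD8 T cells (-0.14) were near 0. Interferon-gamma medians were also below the median of all genes in each, from -0.08 in macrophages to -1.11 in cDC2. The lineages share 2 libraries, so their values are not independent.

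**Figure D5:**
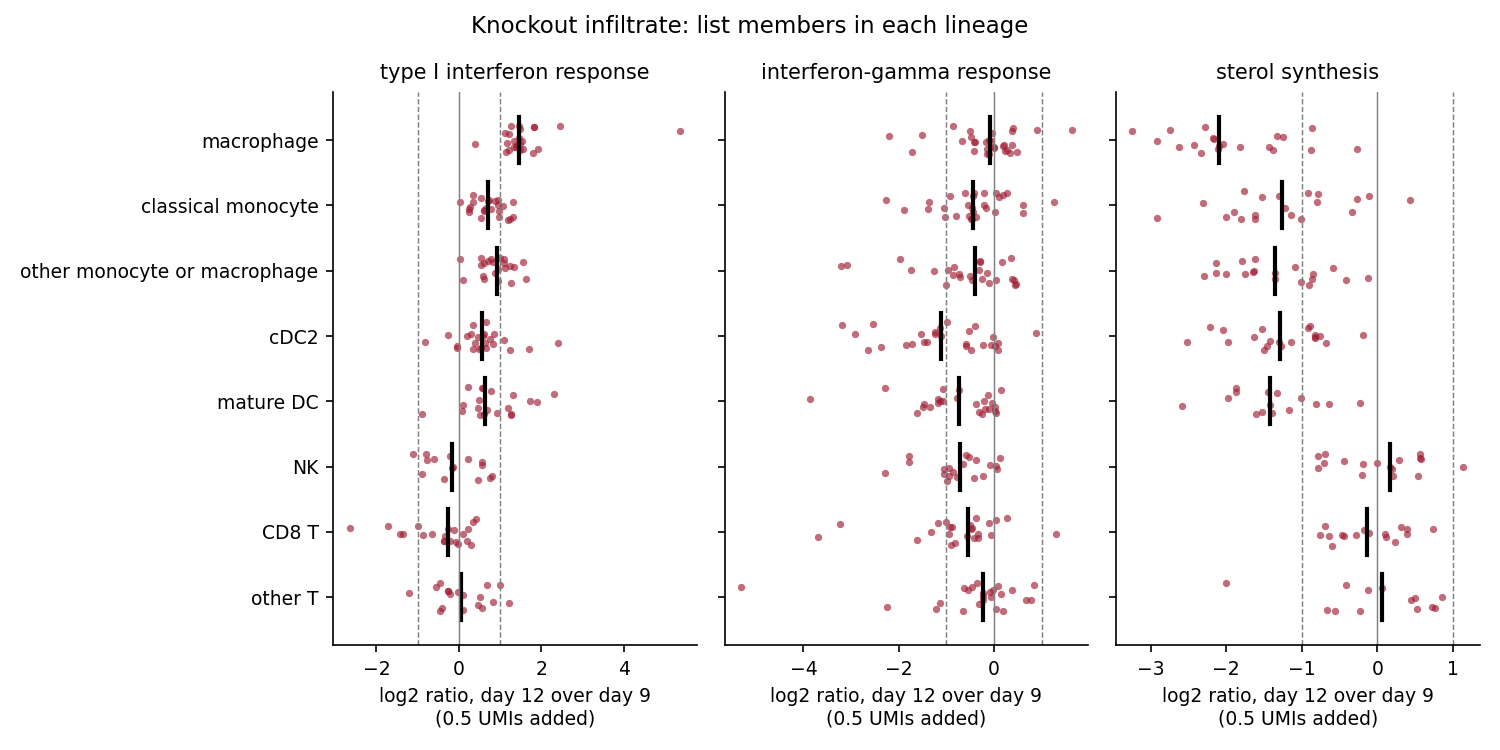
Log2 ratio of day 12 over day 9 for each list gene with at least 20 UMIs, by knockout lineage, with the list median as a black bar and 2-fold as dashed lines. Type I interferon medians reach 1.46 in macrophages and -0.27 in CD8 T cells, interferon-gamma medians reach -1.11 in cDC2, and sterol synthesis medians reach -2.10 in macrophages against 0.17 in NK cells. The sterol list was chosen after these values were seen.

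Of the 4657 genes with at least 20 UMIs in every one of the 8 lineages, 4 were on the same side of 2-fold in all 8. The noncoding transcripts Gm26917 (log2 ratios from 1.72 to 2.26) and Gm42418 (1.06 to 3.20) were higher, in wild-type in 5 and 3 of 6 lineages. Nptn, which encodes the adhesion protein neuroplastin, was lower (-2.08 to -1.09), and so was Fam107b (-1.55 to -1.02), each in 4 of 6 wild-type lineages. These 4 genes were named after their values were seen, and no other reading is drawn from them.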

How the data were processed

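Single-cell 3' RNA libraries from sorted tumour leukocytes were read as the deposited raw UMI count matrices, 27998 gene IDs by barcode, which the authors made with Cell Ranger 2.0.2 on mm10 per the submitters' processing notes. The comparison, gates and lists were chosen with earlier results of these data known. Barcodes with at least 200 genes and at most 10% mitochondrial UMIs were kept. Doublets were not removed in the values given; scores from Scrublet in scanpy 1.11.5 gave an alternative that drops 0.8% per 1000 barcodes. Counts were summed per lineage and library (numpy 2.4.6, pandas 2.3.3, Python 3.11.15). Shares have Clopper-Pearson intervals, share ratios log intervals and CPM ratios exact conditional intervals (scipy 1.17.1), all at 95%; they cover counting error only. Replicate-based tests were not possible with 1 library per group. The scripts were tested on simulated data. Alternatives were TMM factors (edgeR 4.0.16, R 4.3.3, factors only), median-of-ratios factors, means over barcodes, other gates, filters, folds and added UMIs, and 3 alternatives added after seeing the data. Genes named in each lineage were the 10 on each side with the interval bound farthest from 1, from which the text takes a part, the leading and best-known members of 22 fixed lists and 5 added lists, and markers. Mature miRNA and promoter sequences came from RefSeq tables, matched by symbol. Some genes of the lists are counted but not reported here.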

Additional observations from a re-analysis of the deposited data

Results flagged for a closer look

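The following 6 values pointed in opposite directions in the knockout and wild-type libraries, the genes past 2-fold in both and the share with both intervals clear of 1; none of the differences was tested. In macrophages, the log2 ratio of day 12 over day 9 was -1.73 in the knockout and 1.04 in wild-type for Nos2, and -1.34 and 1.07 for Cd9. In NK cells it was 2.86 and -1.39 for Gzmd, a granzyme found in few barcodes. In CD8 T cells it was -3.11 and 1.45 for Ccl1 and -2.52 and 1.14 for Ifng, where single day 9 barcodes held 54.3% and 60.9% of the knockout UMIs. The thinned share of CD8 T cells with Ifng did not point in opposite directions, at 6.54% and 4.84% in the knockout and 31.6% and 15.6% in wild-type, and that with Ccl1 was 1.94% and 1.61% against 4.18% and 3.52%. The share of classical monocytes among all barcodes had a ratio of 0.607 in the knockout and 2.55 in wild-type. Outside T cells the ratios were 0.543 and 1.58, and within monocytes and macrophages 0.618 and 0.721, which are on the same side of 1.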

How the results depend on the processing

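Share ratios stayed within their counting interval in 104 of 109 settings; thinning gave 0.711 for CD3 and NK receptor cells, 0.448 for non-classical monocytes and 0.476 for other monocytes or macrophages, gates at 1 UMI gave 2.65 for cDC1, and counting outside T cells gave 0.878 for all monocytes or macrophages. Gene counts were within 1.5 times in 109 of 160 settings; the other 51 follow, higher then lower. With at least 50 UMIs they were 109 and 240 in CD8 T cells, 87 and 87 in other T cells, 164 and 119 in NK cells, 104 and 298 in cDC2, 118 and 135 in mature dendritic cells, 126 and 267 in other monocytes or macrophages, and, higher, 499 in macrophages and 177 in classical monocytes. With at least 1 UMI they were 2737 and 1103, 1906 and 1068, 1219 and 1414, 1472 and 1250, 1333 and 2255, 1917 and 1203, 2571 and 1144, and 1498 and 1150 in the same order. At 1.5-fold they were 1142 and 1252, 998 and 749, 970 and 1052, 797 and 1369, 748 and 1063, 854 and 1289, 1696 and 1102, and 912 and 1592. Without the barcode with the most UMIs of a gene they were 216 and 1223 in CD8 T cells, 463 lower in other T cells and 434 higher in mature dendritic cells, where median-of-ratios factors gave 249 lower. A setting with fewer or more genes kept, or a smaller fold, moves a count by its construction. List counts were within 1.5 times in 229 of 245 settings. The exceptions on the lower side were, in CD8 T cells without top barcodes, 9 cytotoxic and 11 interferon-gamma genes, and 2 inhibitory receptor genes under means over barcodes, gates at 4 UMIs and at least 50 UMIs; with gates at 4 UMIs, 2 interferon-gamma genes in other T cells and 2 in mature dendritic cells; 7 there with at least 50 UMIs; and 3 in NK cells under means over barcodes. On the higher side they were 6 cell cycle genes in NK cells with gates at 4 UMIs, 13 in macrophages without top barcodes and 1 in other monocytes or macrophages with at least 50 UMIs; 4 interleukin-17 type genes in other T cells with at least 50 UMIs; and, in mature dendritic cells, 4 type I interferon genes under means over barcodes and 5 maturation genes under TMM and under median-of-ratios factors. Of 961 single-gene values 858 stayed close, 99 moved and 4 reversed, which were the log2 ratios of Il17a in other T cells (1.41 without its top barcode), Ccl3 in NK cells (0.807 with gates at 4 UMIs and 0.305 without its top barcode) and Ccl4 in NK cells (0.315 with gates at 4 UMIs). Beyond the settings whose construction gives it, the cause was not tested.

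Scaling factors moved every log2 ratio by over 0.1 in other T cells (-0.11, TMM) and mature dendritic cells (0.15, TMM; 0.17, median-of-ratios). No paired analysis was possible because each group has 1 library, and no replicate could be left out. Depth limits CD8 T cells most, with 62 barcodes at day 12.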

Other observations

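Further genes that differed between the knockout days are given as values. In macrophages Ltc4s, leukotriene C4 synthase, was at 3.87 CPM at day 9 and 93.5 CPM at day 12, in 6 and 115 barcodes, and at 6.73 and 33.1 CPM in wild-type. Fcna was at 2.19 and 56.4 CPM, in 3 and 64 barcodes, and Calml4 rested on 3 UMIs at day 9, with 0.504 and 27.5 CPM (ratio 54.4, 18.3 to 267). In cDC2, Ear2, an eosinophil-type ribonuclease, was at 39.9 and 206 CPM (ratio 5.18, 4.1 to 6.58), and at 214 and 282 CPM in wild-type, so knockout day 9 was the lowest library.

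In other T cells Cxcr6, a chemokine receptor of tissue T cells, was at 135 and 433 CPM (ratio 3.2, 2.59 to 3.96), and at 384 and 318 CPM in wild-type. Ltb4r1, the leukotriene B4 receptor, was at 11.5 and 127 CPM (ratio 11, 6.05 to 21.3), in 11 of 266 and 15 of 114 barcodes. In classical monocytes Saa3, an acute-phase protein, was at 13.9 CPM at day 9 and rested on 3 UMIs (1.11 CPM) at day 12 (ratio 0.0798, 0.0162 to 0.239), with 48.8% of the day 9 UMIs in 1 barcode.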
